A study of Homo sapiens with 2 samples.

Results

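STC1 and STC2 encode the mammalian stanniocalcins, and the regions described here are those where HMGB2, a DNA-bending protein of chromatin, was called in senescent against growing cells at or near these genes. Members were chosen by position: every region of the broad and narrow lists that overlapped a stretch of 210 kb around STC1 on chromosome 8 (hg19, 23550000 to 23760000) or lay within 50 kb of STC2 on chromosome 5 (172741726 to 172756506). This gave 6 of the 3156 regions in the lists, 4 broad (of 364) and 2 narrow (of 2792). All 6 lay at STC1 and 0 at STC2. The STC1 stretch was drawn with its broad regions already known, so their number, place and width are given as a description, with no test.

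The cells were IMR90, a line of human lung fibroblasts kept at 2% oxygen. There were 2 libraries, 1 from growing control cells and 1 from cells infected with RAS, an oncogene that drives fibroblasts into senescence. Both were immunoprecipitated on day 2 with the same rabbit antibody to HMGB2 from Abcam, and each was built from 10 ng of precipitated DNA. How RAS was delivered is not described beyond infection. Higher HMGB2 in senescent cells is read from the order of conditions in the list names. No region carries a score or a read count, so the depth and the size of each difference are unknown, and with 1 library per condition there is no replicate check.

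Stanniocalcins are secreted, disulfide-linked glycoprotein hormones, first known from fish, where they lower calcium uptake. In mammals they act mainly on nearby cells, and both can bind and inhibit PAPP-A, a protease that cuts insulin-like growth factor binding proteins and so frees the growth factor. STC1 has been described among the proteins that senescent cells release, a mixture known as the senescence-associated secretory phenotype. HMGB2 binds DNA with little preference for sequence, so its regions are described here by place and width.

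STC1 spans 12.9 kb, from 23699434 to 23712320 on chromosome 8 in band 8p21.2, and is read from the higher position to the lower (general knowledge, since the files give no strand). The 4 broad regions of the stretch stood at the start of the gene, just past its end, and at 2 places further downstream. Their places are given relative to STC1, which does not assign them to that gene. The region in the gene ran from 23711286 to 23712084 and was 798 bp wide. It lay 236 to 1034 bp downstream of the gene start and took up 6.19% of the gene. Whether it covers exon or intron was not analysed here, because no hg19 annotation was used.

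The widest of the 4, of 1274 bp, ran from 23697963 to 23699237 and ended 197 bp short of the gene's lower border. It thus lay wholly past the 3′ end of STC1. Between these 2 regions, which flank most of the gene, 12.0 kb held no region of either list. A region of 500 bp from 23648151 to 23648651 followed at 50.8 kb past the gene end, and one of 760 bp from 23620016 to 23620776 at 78.7 kb. So 1 of the 4 broad regions lay in STC1 and 3 outside it, all 3 on the downstream side.

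**Figure D1:**
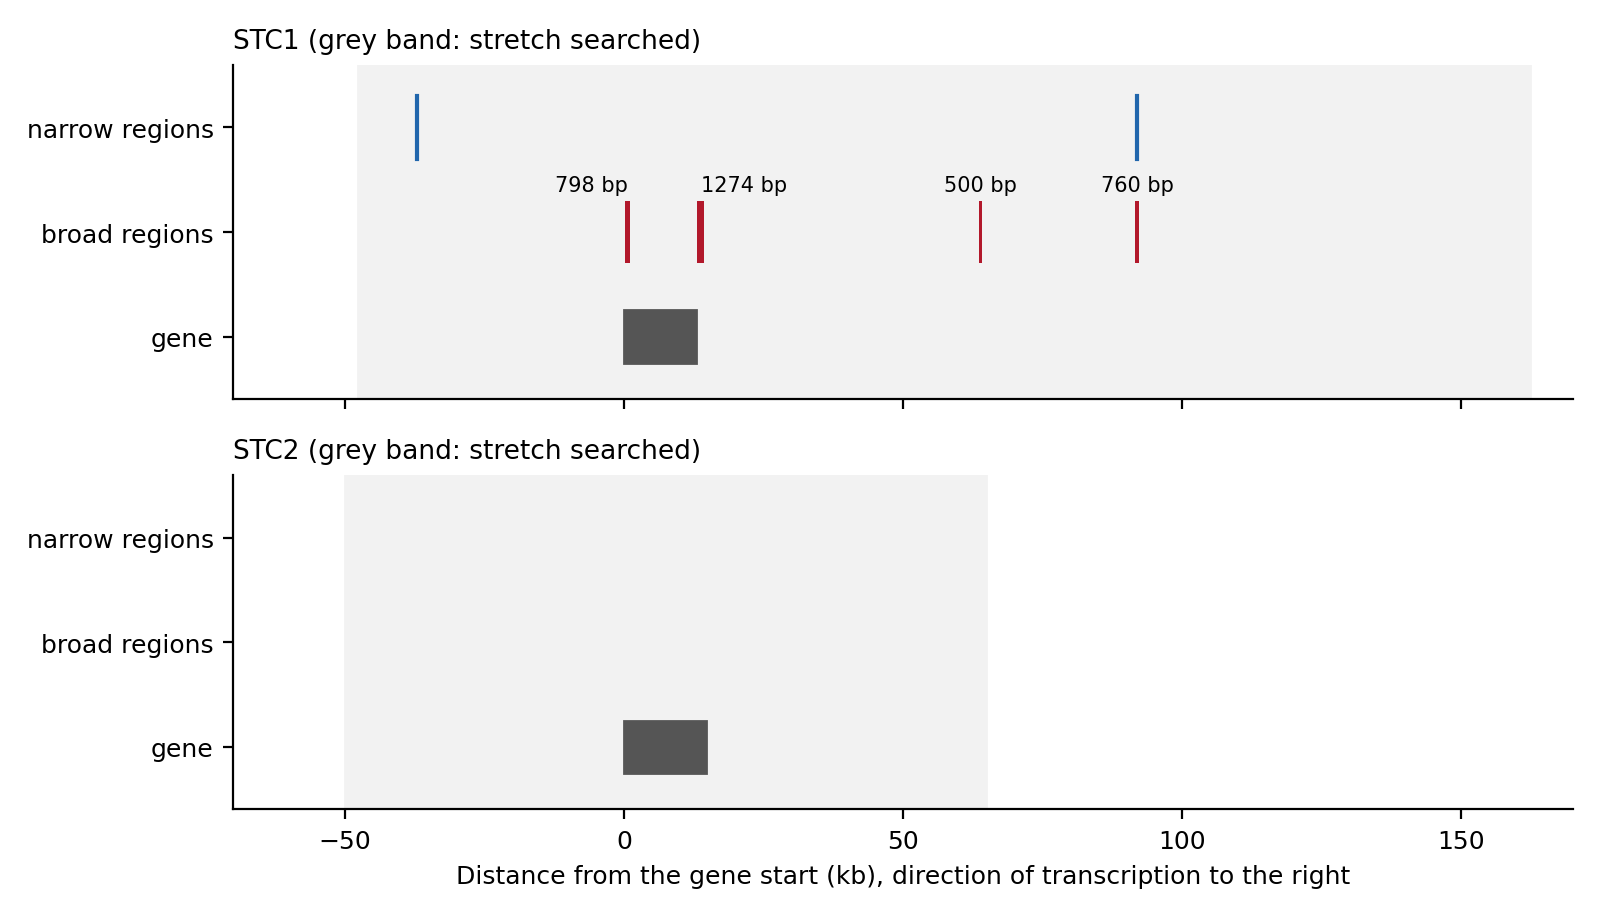
Regions at STC1 (top) and STC2 (bottom) by distance from the gene start in kb, in the direction of transcription, with broad regions drawn to scale (widths printed) and narrow regions marked at their centre. At STC1 the broad region of 798 bp lies in the gene near its start, and that of 1274 bp lies just past its end. Those of 500 and 760 bp lie further downstream, whereas the stretch searched at STC2 is empty.

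The 4 broad regions were thinly spread. Together they covered 3332 bp, or 3.62% of the 92.1 kb from the first to the last. The gaps between neighbours were 27.4, 49.3 and 12.0 kb in order of position. No pair of them lay within 10 kb, so joining neighbouring calls at 1, 5 or 10 kb left 4 regions.

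Of the 2 narrow regions, each of 264 bp like all others of that list, 1 lay in the most distant broad region and 1 on the other side of the gene. The first ran from 23620264 to 23620528, with 248 bp of the broad region on either side, so that both had the same centre. Such centring was common: 86 of the 101 overlapping pairs in the lists were centred to within 1 bp, but among broad regions wider than 500 bp only 8 of 22 pairs were. The second narrow region ran from 23749175 to 23749439, which is 36.9 kb upstream of the gene start, and overlapped no broad region. Neither the broad region in STC1 nor the one just past its end held a narrow region. Hence 1 of the 4 broad regions had a narrow region, against 27.5% of all 364, a share near the background. Both lists come from the same libraries, so an overlap is no independent agreement.

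STC2 spans 14.8 kb on chromosome 5 in band 5q35.1 of hg19 and, by the strand in the RefSeq promoter table of GRCh38.p14, is also read from the higher position to the lower. Neither the gene nor the 50 kb on each side held a broad or a narrow region. The count of broad regions was still 0 at 1 Mb from the gene, and that of narrow regions was 0 at 500 kb and 1 at 1 Mb. That narrow region, from 172193548 to 172193812, lay 548 kb downstream of STC2 and stood at place 15 of the narrow list. The nearest broad regions lay 5.14 Mb away on the lower side and 6.49 Mb on the higher side, both of 500 bp.

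Most stretches as long as the one searched at STC2 held no region of either list. Tiles of the genome were counted for this, not genes. With hg19 divided into 26961 tiles as long as the STC2 stretch, 1.25% held a broad region and 9.71% a narrow one, and nothing particular to STC2 follows from 0 of either. The stretch without a broad region around STC2 was 11.6 Mb long, and 25.2% of the 341 stretches between neighbouring broad regions were at least as long. The stretch without a narrow region was 3.13 Mb long, against a median of 0.648 Mb, and 6.29% of 2768 such stretches were as long or longer. A position falls more often in a long stretch than in a short one: stretches at least as long as those at STC2 made up 67.0% of the summed length for broad regions and 27.7% for narrow regions. An absent region can also be one where the signal missed the authors' threshold.

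**Figure D2:**
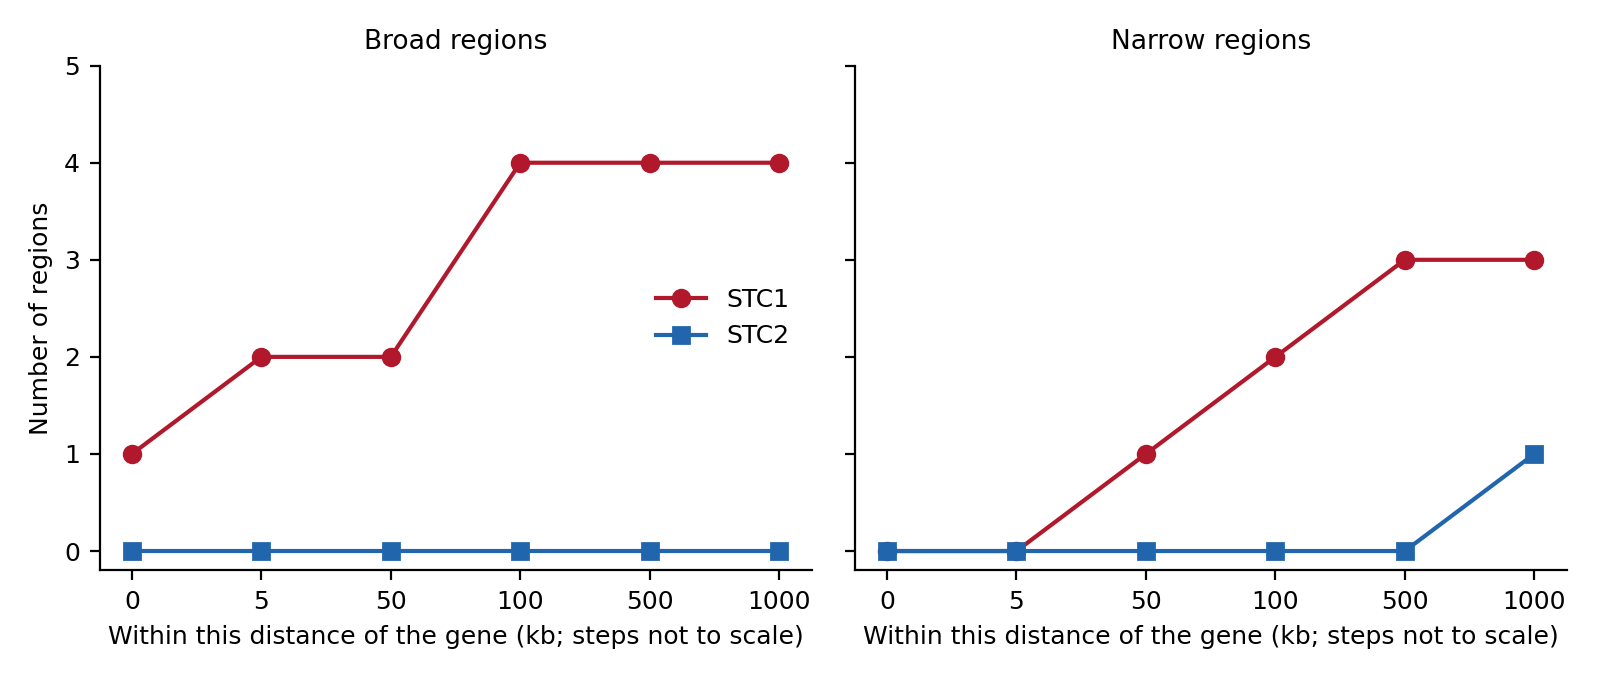
Number of broad (left) and narrow (right) regions that lie within a given distance of STC1 (circles) and STC2 (squares), in kb from the nearer gene border; lines join the counts and the steps are not to scale. Broad regions at STC1 rise from 1 in the gene to 4 within 100 kb, and at STC2 they stay at 0 up to 1000 kb.

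At equal distances STC1 had more broad regions than STC2 throughout, and more narrow regions from 50 kb on. Within 5 kb of the gene borders, STC1 had 2 broad regions and STC2 had 0, and neither had a narrow region. Within 100 kb, STC1 had 4 broad and 2 narrow regions, and STC2 had 0 of both. Within 1 Mb the counts were 4 broad and 3 narrow for STC1 against 0 and 1 for STC2. The difference was not tested, because the genes were chosen for it.

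The place of STC1 among all broad regions was as follows. Among 14729 tiles of 210 kb, 2.22% held at least 1 broad region and 0.0204%, or 3 tiles, held at least 4, as the STC1 stretch did. The 3 tiles were those of 8p21.2 itself, 20q13.13 and 22q12.2. Fixed tiles understate such places: 4 broad regions in 11q22.2 lay within 48.3 kb but were divided by a tile border, with at most 3 in 1 tile. At least 2 narrow regions, as at STC1, were found in 2.02% of these tiles. Per Mb, the STC1 stretch had 19.0 broad regions, against 0.137 over chromosome 8 and 0.118 over the genome. These values follow from the way the stretch was drawn and support nothing by themselves.

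The 4 broad regions made up 4 of the 20 on chromosome 8, and nothing broad lay near them. The next broad regions lay 21.2 Mb below the group and 8.69 Mb above it. The nearest narrow region outside the stretch, from 23501392 to 23501656, lay 48.3 kb beyond its lower border, and that on the other side 1.11 Mb beyond. The lower border of the stretch lay 149 kb from the gene and the upper border 47.7 kb, so the downstream side was searched further. With equal sides of 50 kb the counts at STC1 were 2 broad regions and 1 narrow region, and with 100 kb they were 4 and 2.

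Broad regions within 50 kb of each other formed 6 groups of 3 or more, with 25 of the 364 regions in them. The STC1 group was the longest of the 6, at 92.1 kb, followed by those in 20q13.13 (7 regions over 75.3 kb) and 11q22.2 (4 regions over 48.3 kb). Its median gap of 27.4 kb was also the largest, with medians of 1.38 to 8.85 kb in the other 5 groups, and it was the only one of the 6 without a gap under 10 kb. The group in 11q22.2 had the same number of regions but a summed width of 7332 bp, and that in 22q12.2 had a nearly equal summed width, 3396 bp, within 7.67 kb. Of the 6 groups, that of STC1 had the smallest share of its length covered. The 49.3 kb gap only just met the limit of 50 kb; with a limit between 27.4 and 49.3 kb the STC1 regions would form 2 pairs.

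**Figure D3:**
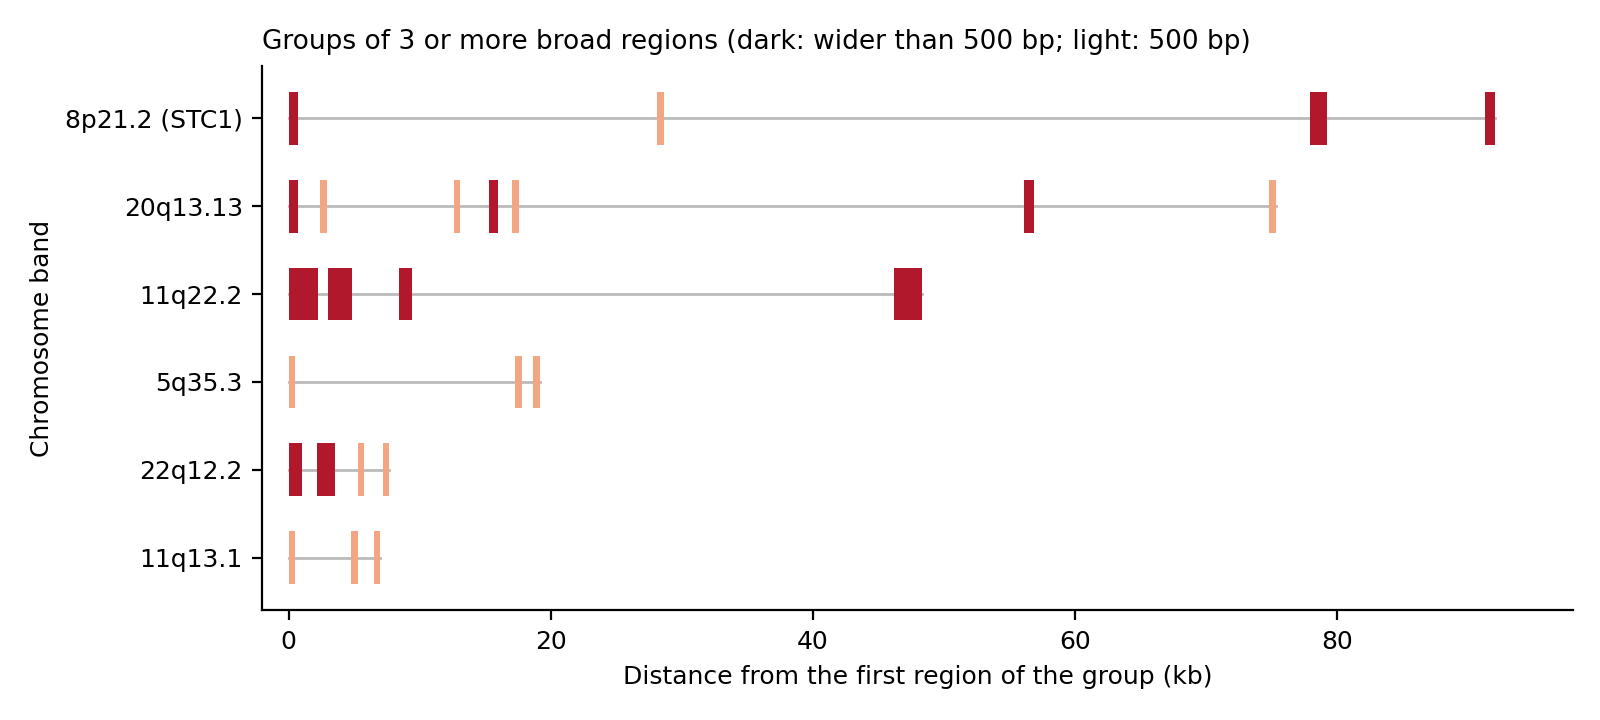
The 6 groups of 3 or more broad regions with neighbours within 50 kb, each drawn from the first region of the group, by distance in kb; dark bars are wider than 500 bp and light bars are 500 bp. The STC1 group in 8p21.2 extends over 92.1 kb with 4 separated regions, and that in 22q12.2 has 4 regions within 7.67 kb.

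By width, 3 of the 4 STC1 regions exceeded the smallest width of 500 bp, against 14.6% of the broad list. This was not particular to STC1 among the 6 groups. Such regions were 4 of 4 in 11q22.2, 3 of 7 in 20q13.13 and 2 of 4 in 22q12.2, but 0 of 3 in both 11q13.1 and 5q35.3. The widths of the 3 STC1 regions, 1274, 798 and 760 bp, ranked 20, 38 and 43 among the 364. The median of all 53 wider regions was 1048 bp, so 1 of the 3 lay above it and the other two below. Chromosome 8 had 5 such regions, and the remaining pair, of 628 and 976 bp, lay outside 8p21.2 at 32405892 and 42045632. Chromosome 5, that of STC2, had 24 broad regions and none wider than 500 bp.

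The deposited order of the list, the meaning of which no label states, put the STC1 regions at places 21, 52, 53 and 133 of 364. The region just past the gene end came first, the distant one with the narrow region and the one in the gene stood next to each other, and that of 500 bp came last. Every one of the 53 wider regions stood within the first 76 places, so the early places of the 3 wider STC1 regions follow the whole list. In the narrow list, the STC1 regions stood at places 139 and 1088 of 2792.

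**Figure D4:**
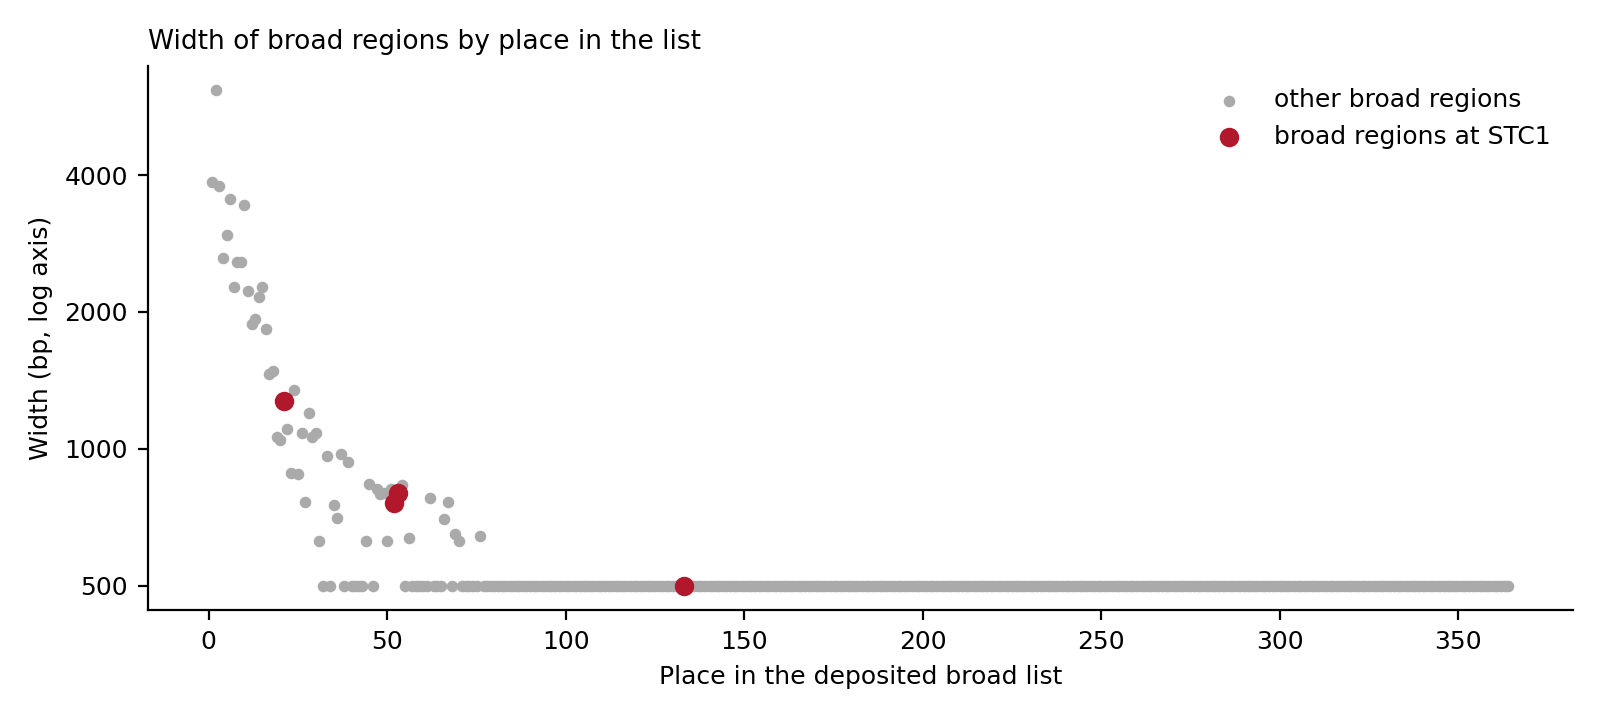
Width in bp (log axis) of each of the 364 broad regions against its place in the deposited list, with the 4 regions at STC1 in red. The STC1 regions of 1274, 760 and 798 bp stand at places 21, 52 and 53 among the other wider regions, and that of 500 bp stands at place 133 among the many of the smallest width.

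Gene order in the RefSeq table of GRCh38.p14 shows like surroundings for the 2 genes. The protein-coding neighbours of STC1 were NKX2-6 and ADAM28, and those of STC2 were NKX2-5 and BOD1. NKX2-6 and NKX2-5 encode related homeobox transcription factors of the developing heart, ADAM28 encodes a membrane-anchored protease, and BOD1 acts in the attachment of chromosomes to the spindle. In both cases the NKX2 gene is on the downstream side of the stanniocalcin gene, the side on which the 3 outer broad regions of STC1 lay. How far those regions lie from NKX2-6 was not analysed here, since the table is of another build.

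The partners of the stanniocalcins could be placed only by chromosome band, from GRCh38 to the hg19 band of the same name. Of 7 partner genes, 1 lay in a band with a broad region, IGF2, a growth factor whose band 11p15.5 held 1, wider than 500 bp. The bands of the proteases PAPPA and PAPPA2, the binding proteins IGFBP4 and IGFBP5, the growth factor IGF1 and the receptor IGF1R held 0 broad and 2 to 4 narrow regions each. Across hg19, 29.6% of 862 bands held a broad region and 82.1% a narrow one, with a median of 3 narrow regions per band, so the partner bands were ordinary in their narrow regions. A band spans megabases, so a region in it need not lie at the gene. Band names can shift between builds: STC2 fell in 5q35.1 by its hg19 position and in 5q35.2 by its GRCh38 position, with 0 broad regions in either.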

How the data were processed

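The authors deposited 2 lists of regions for the comparison of the senescent with the growing library; their columns, per the file headers, are a region name, the chromosome and both borders of the region in bp, with no other value. Per the submitters' processing notes, Bowtie 0.12.9, HOMER 1.0 and hg19 were used, with no role or order given. No source used here gives the peak calling settings or says whether an input control was used. Whether positions count from 0 or 1 is not stated, so a start could differ by 1 bp. Samples were grouped by the cell condition in the labels.

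The members, gene lists and comparisons were chosen with earlier results of these data known. The gene spans of STC1 and STC2 in hg19 were given with the selection rule. Overlap meant at least 1 bp, width was end minus start, and gaps were measured edge to edge. Counts at both genes were checked with bedtools 2.31.1. Background shares came from full tiles of hg19 (chromosome lengths from GenomeInfoDb 1.38.1, bands from circlize 0.4.16 in R 4.3.3), including assembly gaps. The lengths of empty stretches and the centring of narrow regions were added after values were seen. No test was made. The tile count was tested on simulated data and returned the planted number in 60 of 60 tiles. The planted regions were all of 500 bp and lay clear of the tile borders, so regions across a border were not tried. The genes named are the members, their nearest protein-coding neighbours in the RefSeq table and the fixed list of partners; groups of broad regions are named by band. Alternatives varied the span, the joining of neighbours, the part of each list, the overlap and the tiling. Python 3.11.15, numpy 2.4.6, pandas 2.3.3 and matplotlib 3.10.9 were used.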

Additional observations from a re-analysis of the deposited data

How the results depend on the processing

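Of 37 alternatives, 32 kept a count at 0 or within 1.5 times its value. Several of the 32 could not have moved, so their number is no measure of stability. The smallest gap between broad regions at STC1 was 12.0 kb, so joining at up to 10 kb could change no count, summed width or median gap. A part of a list with 0 regions at STC2 must also hold 0. Where a narrower or wider span moved a count, only the direction was fixed in advance. A narrower span cannot gain regions and a wider one cannot lose them, but the size of the change was open. With 50 kb on each side of STC1, the distance used at STC2, the broad regions fell from 4 to 2 and the narrow regions from 2 to 1. The counts at STC1 thus depend on the longer stretch searched there. With the gene extended by 5 kb on each side, 2 broad regions in place of 1 lay in STC1. With 1 Mb on each side, STC2 had 1 narrow region in place of 0. With tiles of 1 Mb, 0.194% held at least 4 broad regions, against 0.0204% with tiles of 210 kb. No paired analysis was possible because no condition has a second library and no test was run. Without a known depth, little can be read from an absent region, and only 4 broad and 2 narrow regions carry the account of STC1.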
